A study of Homo sapiens with 12 samples.

Results

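The comparison set MCF10A cells that received siRNA against YAP and TAZ followed by XMU-MP1 against MCF10A cells that received control siRNA and DMSO. It used 6 of the 12 libraries of the series, 3 in each group, chosen by their labels. MCF10A is an immortalised, non-tumorigenic human mammary epithelial line. It is wild type by its label and was grown with horse serum, insulin, hydrocortisone and epidermal growth factor. The siYT_XMU cells were transfected with 2 sets of siRNAs that target YAP and TAZ, at 11 nM, and after 48 h they were given fresh medium with 5 µM XMU-MP1, an inhibitor of the kinases MST1 and MST2, for 6 h. The siC_DMSO cells received control siRNA at 22 nM and then fresh medium with DMSO for the same 6 h. Transfection with RNAi Max and the medium change were common to both groups. Every difference between them combines the siRNA with the inhibitor, and single siRNAs within a set cannot be told apart. The other groups, siYT_DMSO (knockdown and DMSO) and siC_XMU (control siRNA and XMU-MP1), each with 3 libraries, show where the double treatment stood apart from each single one and enter the shared estimate of the spread.

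YAP and TAZ, the products of YAP1 and WWTR1, are coactivators without a DNA-binding domain of their own that drive growth genes mainly through the TEAD factors. In the Hippo pathway MST1 and MST2, encoded by STK4 and STK3, act with SAV1 on LATS1 and LATS2, and these phosphorylate YAP and TAZ so that they stay out of the nucleus or are degraded. In stratified epithelia YAP activity belongs to proliferating basal cells, whereas suprabasal cells leave the cell cycle and make the cornified envelope, a protein and lipid shell. The transcription factor p63 (TP63) maintains the basal state, and the title of the series names its deltaN form, which gene-level values cannot tell from the TA form.

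Depth was 37044804, 60832492 and 8243351 counts in libraries a, b and c of siYT_XMU, against 55975525, 67953633 and 62607442 in siC_DMSO. In siYT_XMU, library c was unlike the others. Of its counts 35.0% came from ribosomal RNA (26.4% mitochondrial), against 5.38% and 2.66% in libraries a and b and 1.05% to 2.15% in siC_DMSO, and 15135 genes had a count, against 19882 and 20704. It correlated with libraries a and b at 0.856 and 0.852 over log2 values, while a and b correlated with each other at 0.934. Each count of calls was therefore also taken from a fit without it. Among the siYT_DMSO libraries, a was the shallowest, with 25246464 counts, 8.35% of them ribosomal RNA. Libraries b and c of that group had 3.64% and 1.86%. Levels are CPM, the counts of a gene scaled to library size by TMM, given for libraries a, b and c in that order. Log2 fold changes carry their standard error (SE). A gene was called, and is said to have risen or fallen, where the Benjamini-Hochberg adjusted p of edgeR's quasi-likelihood test lay under 0.05 over all genes tested. Fits used all 12 libraries, which share 1 estimate of the spread. Nothing states that the letters are separate cultures, so a p-value reflects only how far these libraries differ, which may be technical.

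Of 18143 genes tested, 3498 were higher in siYT_XMU than in siC_DMSO, which is 19.3%, and 3911 were lower, which is 21.6%. In either direction 40.8% were called. Counts of list members below stand against these shares, and no list was tested as a set. Of all genes, 2708 (14.9%) rose and 2993 (16.5%) fell by at least 2-fold. With library c left out, 3950 of 19211 genes (20.6%) were higher and 4030 (21%) lower, and 3103 of the rises and 3619 of the falls were called in both fits, with 0 genes called in opposite directions. Rises made up 47.2% of the calls from counts. On the deposited FPKM values, where the median log2 fold change over all genes was -0.25 with a pseudocount of 1 against 0.02 from counts, they made up 20.8%, in a limma fit, so that scale and test both differed. With only the scaling changed, to DESeq2's size factors, they made up 51.2%. In bulk RNA fewer cells of a kind and less RNA per cell cannot be told apart.

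**Figure D1:**
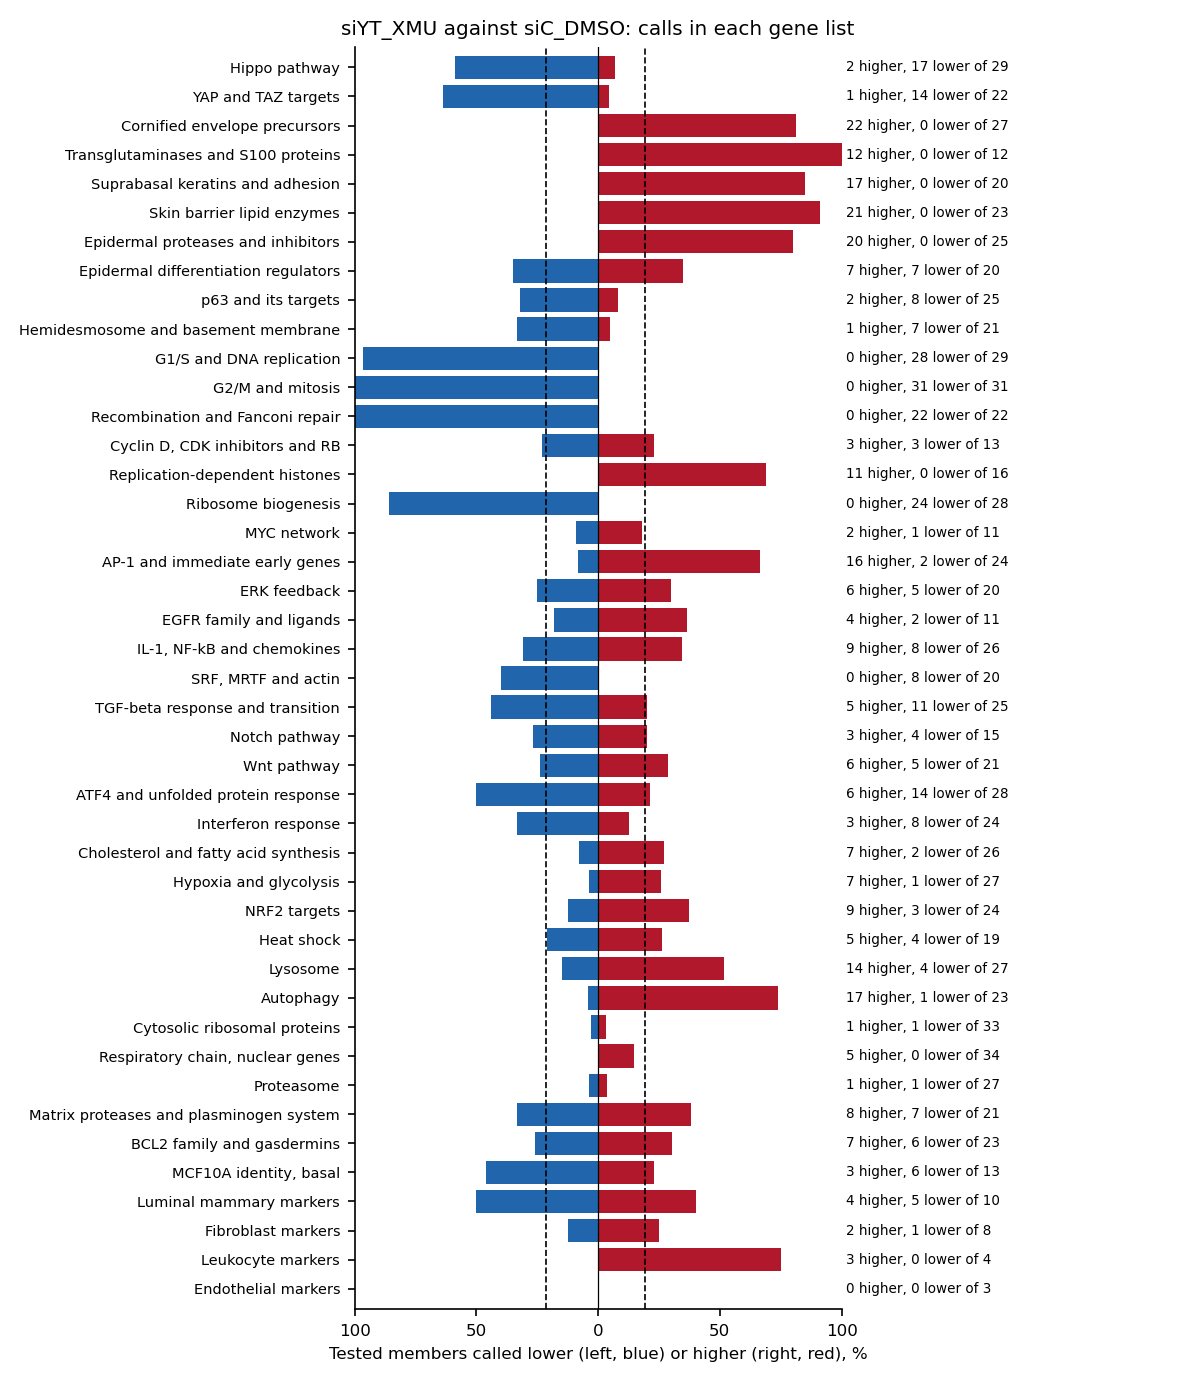
Share of the tested members of 43 gene lists called lower (blue, to the left) or higher (red, to the right) in siYT_XMU than in siC_DMSO, in %. Dashed lines mark the shares over all genes, 21.6% lower and 19.3% higher, and the counts stand beside each bar. The lists of the cornified envelope, S100 proteins, suprabasal keratins, barrier lipids and epidermal proteases reach far right of the line, and the cell cycle lists far left.

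The targeted genes were low in every siYT_XMU library. On GRCh38.p13, YAP1 (chromosome 11, 102109957 to 102233424, plus strand) had 6.63, 3.81 and 5.39 CPM in siYT_XMU, against 201, 223 and 193 CPM in siC_DMSO, a log2 fold change of -5.29 ± 0.26 (adjusted p = 4.42e-07). WWTR1 (chromosome 3, 149517229 to 149724788, minus strand) had 2.11, 1.24 and 0 CPM in siYT_XMU, against 34.6, 24. and 38.2 CPM in siC_DMSO, a change of -4.59 ± 0.52 (adjusted p = 4.47e-05). The groups did not overlap for either gene. An exact two-sided permutation test of the 6 libraries gave 0.1 for both, the smallest p that 3 against 3 libraries can give. Both genes were also lower in siYT_XMU than in siYT_DMSO. YAP1 stood at 12.6, 9.09 and 7.84 CPM in siYT_DMSO, a log2 fold change of -0.9 ± 0.22 for siYT_XMU over it (adjusted p = 0.0221). WWTR1 stood at 4.296, 4.47 and 3.66 CPM there (-1.62 ± 0.48, adjusted p = 0.0463).

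**Figure D2:**
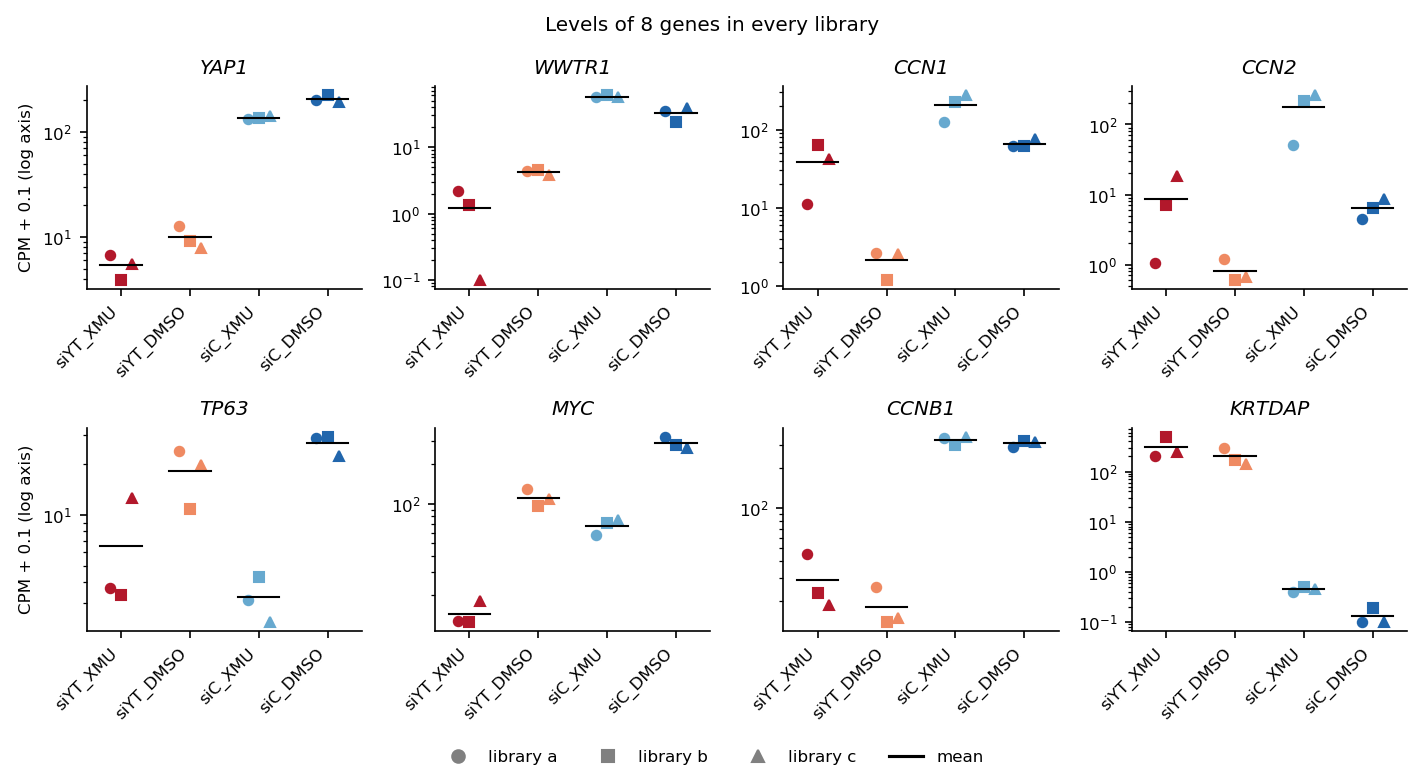
CPM plus 0.1 on a log axis for 8 genes in the 12 libraries, with a circle, square and triangle for libraries a, b and c and a line at the mean of 3. YAP1, WWTR1, TP63, MYC and CCNB1 are lower in siYT_XMU than in every siC_DMSO library, KRTDAP is higher, and CCN1 and CCN2 overlap with siC_DMSO.

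In the Hippo pathway list, which holds YAP1 and WWTR1, 17 of 29 tested members were lower and 2 higher in siYT_XMU (median log2 fold change -1.19, against 0.02 over all genes). Without library c the counts were 19 and 2. LATS2, one of the kinases that act on YAP and TAZ, had 3.52, 4.85 and 7.04 CPM in siYT_XMU, against 21.4, 21.4 and 22.02 CPM in siC_DMSO (log2 fold change -2.11 ± 0.27, adjusted p = 0.000106). STK3, the gene of MST2, fell by 1.61 ± 0.22 (adjusted p = 0.000134). The other kinase genes were not called: STK4 (MST1) had a log2 fold change of 0.07 ± 0.29 (adjusted p = 0.868) and LATS1 of -0.41 ± 0.40 (adjusted p = 0.434). LATS1 depended on the shallow library, with 14.1, 9.82 and 38.3 CPM in siYT_XMU, against 30.5, 27.2 and 23.1 CPM in siC_DMSO, and without that library its change was -1.18 (adjusted p = 0.00197). TEAD4, one of the TEAD factors, fell to 4.696, 3.92 and 3.94 CPM in siYT_XMU, against 34.97, 36.1 and 42.3 CPM in siC_DMSO (-3.17 ± 0.34, adjusted p = 2.77e-05).

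TP63 (chromosome 3, 189596746 to 189897279, plus strand) had 3.58, 3.25 and 12.4 CPM in siYT_XMU, against 28.3, 28.8 and 22.4 CPM in siC_DMSO. All siYT_XMU libraries lay below all siC_DMSO libraries, with library c the highest of its group. The log2 fold change was -2.13 ± 0.51 (adjusted p = 0.00554, exact permutation p = 0.1), and without library c it was -2.96 (adjusted p = 0.000209). TP63 stood at 3.03, 4.17 and 2.21 CPM in siC_XMU, and siYT_XMU was not called against that group (0.95 ± 0.50, adjusted p = 0.155) nor against siYT_DMSO (-1.58 ± 0.50, adjusted p = 0.0615), where it stood at 23.9, 10.8 and 19.7 CPM.

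Among 22 tested targets of YAP and TAZ, 14 fell, 1 rose and 7 were not called against siC_DMSO (median -1.27). Knockdown alone (siYT_DMSO against siC_DMSO) gave 15 lower and 0 higher (median -1.66). Between siYT_XMU and siYT_DMSO 5 members were higher in siYT_XMU and 3 lower. Of all genes 4.19% were higher and 7.92% lower there. FJX1, a Golgi kinase gene, had 0.998, 0.735 and 0 CPM in siYT_XMU, against 52.3, 46.5 and 48.5 CPM in siC_DMSO (-6.09 ± 0.60, adjusted p = 1.72e-05). AJUBA, a LIM protein that binds LATS kinases, had 5.11, 2.88 and 1.66 CPM in siYT_XMU, against 122, 121 and 87.2 CPM in siC_DMSO (-5.0 ± 0.45, adjusted p = 1.05e-05). AMOTL2, an angiomotin that holds YAP at junctions, fell by 3.81 ± 0.39 (adjusted p = 2.17e-05). The 1 member that rose was GADD45B, a stress-response gene, at 261, 561 and 223 CPM in siYT_XMU, against 37.6, 31.9 and 26.4 CPM in siC_DMSO (3.45 ± 0.32, adjusted p = 1.36e-05).

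Widely used readouts of YAP and TAZ, the secreted matrix proteins CCN1 and CCN2, were not among the falls. CCN1 had 10.98, 63.05 and 42.5 CPM in siYT_XMU, 2.54, 1.08 and 2.48 in siYT_DMSO, 125, 229 and 276 in siC_XMU and 61.6, 61.3 and 75.4 in siC_DMSO. Its siYT_XMU libraries lay within and below the siC_DMSO range, and the change was -0.77 ± 0.51 (adjusted p = 0.251). Against siYT_DMSO it was higher by 4.26 ± 0.59 (adjusted p = 0.00103), and against siC_XMU it was lower (-2.44 ± 0.53, adjusted p = 0.00403). CCN2 had 0.969, 6.94 and 18.02 CPM in siYT_XMU, 1.08, 0.503 and 0.562 in siYT_DMSO, 51.5, 219.5 and 261 in siC_XMU and 4.39, 6.42 and 8.43 in siC_DMSO. The change against siC_DMSO was 0.3 ± 0.79 (adjusted p = 0.79), with library a below and library c above all siC_DMSO libraries. Against siYT_DMSO it was 3.53 ± 0.91 (adjusted p = 0.0264) and against siC_XMU -4.49 ± 0.88 (adjusted p = 0.00212). Without library c neither gene was called against siC_DMSO, with CCN1 at -0.84 (adjusted p = 0.297) and CCN2 at -0.68 (adjusted p = 0.511).

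The 250 bases before the start of CCN2 (chr6:131951373-131951622, minus strand, RefSeq on GRCh38.p14) are shown because TEAD factors are known to bind there. Capitals mark the TEAD motif CATTCC or its reverse complement GGAATG, which occurs 3 times, 169, 104 and 95 bases before the start.
CCN2: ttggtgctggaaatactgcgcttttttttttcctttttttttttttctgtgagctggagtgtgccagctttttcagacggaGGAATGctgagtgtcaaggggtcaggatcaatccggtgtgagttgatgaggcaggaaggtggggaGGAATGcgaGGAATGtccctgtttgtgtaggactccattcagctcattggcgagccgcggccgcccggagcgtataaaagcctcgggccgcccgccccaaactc
The motif, searched on both strands, was present in the same window of 6 of 17 matched target genes of YAP and TAZ (35.3%), of 6 of 20 cornified envelope genes (30.0%) and in 11.9% of 27305 promoters. A match describes letters only.

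The 8 largest rises that met the naming rule (a mean FPKM of at least 5, no overlap, and a call without library c) included genes of skin lipids and the outer epidermis. CERS3, the ceramide synthase of ultra-long-chain skin ceramides, had 27.8, 49.7 and 69.4 CPM in siYT_XMU, against 0, 0 and 0 CPM in siC_DMSO. CYP4F22, the hydroxylase of the same lipids, had 17.1, 35.7 and 23.4 CPM in siYT_XMU, against 0, 0 and 0 CPM in siC_DMSO. Both had 0 counts in siC_XMU too, and were at least 1170-fold and 608-fold higher in siYT_XMU than in siC_DMSO, with 3 counts per library as the floor for a count of 0. The same bound was 960-fold for SLC5A1, a sodium and glucose transporter, 907-fold for HOPX, a homeodomain cofactor, and 894-fold for CARD18, a regulator of caspase-1. For CRCT1, a gene of the epidermal differentiation region of chromosome 1, it was 716-fold, and for WFDC5, a protease inhibitor gene, 475-fold. KRTDAP, a secreted keratinocyte protein, had 203, 483 and 248 CPM in siYT_XMU, against 0, 0.0892 and 0 CPM in siC_DMSO (13.14 ± 0.78, adjusted p = 1.09e-06). None of these 8 genes was called between siYT_XMU and siYT_DMSO, with adjusted p from 0.385 (KRTDAP) to 0.779 (CERS3).

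Precursors of the cornified envelope rose together, with 22 of 27 tested members higher, 0 lower and a median log2 fold change of 7.95. A further 7 of the 34 members listed did not pass the count filter. The median was 5.83 with the 4 members that had 0 counts in siC_DMSO set to their lower bound, and 22 members were higher without library c. In siYT_DMSO 22 members were higher than in siC_DMSO too (median 7.4), and 0 were called between siYT_XMU and siYT_DMSO. SPRR1B, a small proline-rich protein that is cross-linked into the envelope, had 2763, 3212 and 3154 CPM in siYT_XMU, against 8.01, 5.8 and 5.41 CPM in siC_DMSO (8.89 ± 0.40, adjusted p = 4.42e-07). SPRR1A had 1971, 3007 and 1596 CPM in siYT_XMU, against 2.08, 1.63 and 2.01 CPM in siC_DMSO (10.16 ± 0.50, adjusted p = 4.7e-07), although reads of these near-identical copies may be shared. CNFN, cornifelin, rose by 9.33 ± 0.57 (adjusted p = 1.14e-06). Involucrin (IVL), a scaffold of the envelope, had 106, 368 and 229 CPM in siYT_XMU, against 12.7, 9.64 and 7.77 CPM in siC_DMSO (4.54 ± 0.50, adjusted p = 3.44e-05). Filaggrin (FLG), made in the granular layer, was low and not called, with 1.497, 1.78 and 1.66 CPM in siYT_XMU, against 0.475, 0.778 and 0.565 CPM in siC_DMSO (1.44 ± 1.34, adjusted p = 0.419).

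Promoters of SPRR1B and KRTDAP are shown because AP-1 sites are known in genes of this kind. Each line holds the 250 bases before the start, for SPRR1B chr1:153030953-153031202 on the plus strand and for KRTDAP chr19:35490465-35490714 on the minus strand, RefSeq on GRCh38.p14. Capitals mark the AP-1 motif TGANTCA on either strand, 141 and 111 bases before the start of SPRR1B and 82 before that of KRTDAP.
SPRR1B: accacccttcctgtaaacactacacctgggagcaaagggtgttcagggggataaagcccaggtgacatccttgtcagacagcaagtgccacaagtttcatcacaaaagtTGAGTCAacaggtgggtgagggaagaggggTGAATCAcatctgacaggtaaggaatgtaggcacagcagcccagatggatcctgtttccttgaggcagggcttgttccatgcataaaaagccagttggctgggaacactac
KRTDAP: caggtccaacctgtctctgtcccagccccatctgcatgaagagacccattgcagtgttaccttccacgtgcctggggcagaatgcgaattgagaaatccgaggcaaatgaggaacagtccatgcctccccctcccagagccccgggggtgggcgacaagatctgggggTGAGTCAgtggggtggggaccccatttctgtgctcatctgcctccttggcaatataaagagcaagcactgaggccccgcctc
This motif was found in 13 of 20 matched promoters of cornified envelope genes (65.0%), in 6.6% of all promoters and in 0 of 18 immediate early genes. Related genes of the SPRR and LCE families make up much of the envelope list, so matches of any motif within it are not independent.

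**Figure D3:**
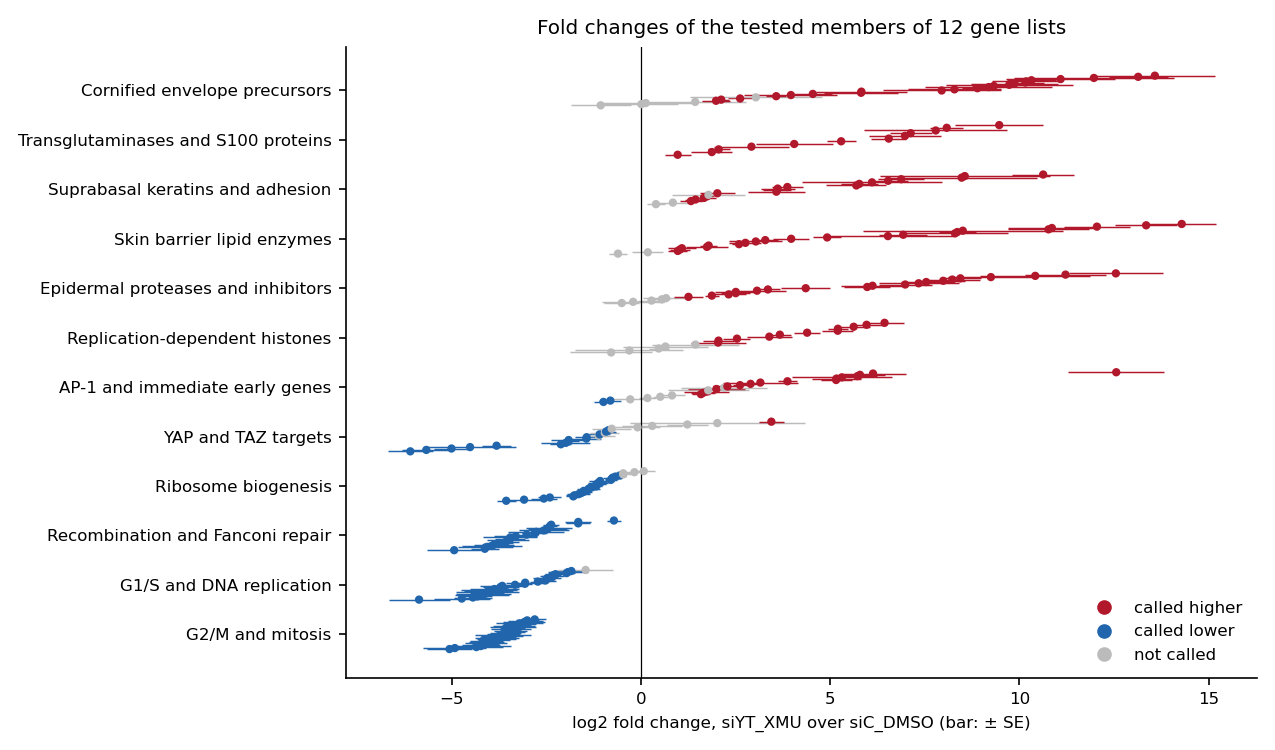
Log2 fold change of siYT_XMU over siC_DMSO, with bars for the SE, for each tested member of 12 lists, sorted within a list. Red points were called higher, blue lower and grey neither. All 31 G2/M members lie to the left of 0 and all 12 transglutaminase and S100 members to the right.

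Transglutaminases and S100 calcium-binding proteins were higher in 12 of 12 members (median 5.92, or 4.67 with the 1 member at 0 set to its bound). The number was 12 without library c, and 8 to 12 over the fits that left out 1 of the 6 libraries. In siYT_DMSO 10 of them were higher than in siC_DMSO. Against siYT_DMSO 0 were higher in siYT_XMU and 1 was lower. S100A7, psoriasin, had 4030, 6082 and 3484 CPM in siYT_XMU, against 21.6, 14.9 and 13.7 CPM in siC_DMSO (8.08 ± 0.44, adjusted p = 7.71e-07). S100A8 and S100A9, the subunits of calprotectin, rose by 6.55 ± 0.46 (adjusted p = 2.95e-06) and 5.29 ± 0.39 (adjusted p = 3.33e-06). TGM1, the transglutaminase that cross-links the envelope, had 80.1, 157 and 83.9 CPM in siYT_XMU, against 0, 1.35 and 1.17 CPM in siC_DMSO (6.98 ± 0.96, adjusted p = 0.000157). Among suprabasal keratins and adhesion proteins 17 of 20 were higher and 0 lower (median 3.61), or 19 higher without library c. In siYT_DMSO 18 were higher than in siC_DMSO, and against siYT_DMSO 0 were higher in siYT_XMU and 2 lower. KRT6B and KRT16, keratins of activated keratinocytes, rose by 5.77 ± 0.49 (adjusted p = 7.16e-06) and 6.88 ± 0.61 (adjusted p = 9.77e-06). Reads of KRT6B, KRT16 and S100A7 can be shared with close copies (KRT6C, KRT17 and S100A7A). CDSN, corneodesmosin, reached 43.3, 135 and 152 CPM in siYT_XMU, against 1.26, 1.02 and 1.28 CPM in siC_DMSO (6.53 ± 0.53, adjusted p = 6.28e-06). KRT10, the keratin of the spinous layer, had 177, 367 and 28.2 CPM in siYT_XMU, against 13.9, 14.9 and 19.2 CPM in siC_DMSO, with library c the lowest of its group (3.58 ± 0.76, adjusted p = 0.00278).

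Enzymes of skin barrier lipids rose in 21 of 23 tested members, with 0 lower (median 3.97, or 3.29 with the 6 members at 0 set to their bound), and in 19 without library c. In siYT_DMSO 20 were higher than in siC_DMSO, and against siYT_DMSO 0 were higher in siYT_XMU and 1 lower. SULT2B1, a cholesterol sulfotransferase, had 359, 539 and 283 CPM in siYT_XMU, against 1.85, 0.816 and 0.937 CPM in siC_DMSO (8.36 ± 0.48, adjusted p = 1e-06). ABCA12, the lipid transporter of lamellar granules, rose by 4.92 ± 0.37 (adjusted p = 3.79e-06), LIPK, an epidermal lipase, by 6.93 ± 0.64 (adjusted p = 1.19e-05), and ELOVL4, a fatty acid elongase, by 2.59 ± 0.19 (adjusted p = 3.2e-06). Of 25 epidermal proteases and inhibitors 20 rose and 0 fell (median 4.36). In siYT_DMSO 22 were higher than in siC_DMSO, and against siYT_DMSO 1 was higher in siYT_XMU and 1 lower. KLK6 and KLK9, kallikrein proteases, rose by 7.99 ± 0.58 (adjusted p = 3.33e-06) and 7.54 ± 0.65 (adjusted p = 8.32e-06). PI3, the elastase inhibitor elafin, had 3590, 2023 and 3956 CPM in siYT_XMU, against 16.1, 8.91 and 6.87 CPM in siC_DMSO (8.23 ± 0.72, adjusted p = 8.73e-06), and A2ML1, a broad protease inhibitor, rose by 8.44 ± 0.54 (adjusted p = 1.43e-06).

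Regulators of epidermal differentiation did not move as one, with 7 of 20 higher and 7 lower (median 0.29). OVOL1, a repressor that promotes exit from the cycle, had 294, 532 and 152 CPM in siYT_XMU, against 18.1, 9.46 and 6.75 CPM in siC_DMSO (4.84 ± 0.58, adjusted p = 6.43e-05). Its relative OVOL2 moved the other way, to 0.235, 0.445 and 0 CPM in siYT_XMU, against 8.28, 9.68 and 6.69 CPM in siC_DMSO (-4.82 ± 0.61, adjusted p = 9.35e-05). GRHL1, a grainyhead factor, had 76.98, 100.2 and 55.1 CPM in siYT_XMU, 204, 192 and 220.4 in siYT_DMSO, 24.2, 24.6 and 21.1 in siC_XMU and 16.2, 13.4 and 8.099 in siC_DMSO. It was higher than in siC_DMSO (2.63 ± 0.27, adjusted p = 2.15e-05) and lower than in siYT_DMSO (-1.4 ± 0.26, adjusted p = 0.00484). In all, 12 of the 20 regulators were lower in siYT_XMU than in siYT_DMSO, where 7.92% of all genes were lower, and 0 were higher. In the Notch pathway 3 of 15 members rose and 4 fell, where 19.3% of all genes rose and 21.6% fell. The receptor gene NOTCH3 had 117, 87.7 and 143 CPM in siYT_XMU, against 1.46, 0.612 and 1.02 CPM in siC_DMSO (6.82 ± 0.39, adjusted p = 1e-06). NRARP, a target and inhibitor of Notch signalling, reached 796, 543 and 514 CPM in siYT_XMU, against 5.54, 7.14 and 6.21 CPM in siC_DMSO (6.62 ± 0.41, adjusted p = 1.14e-06).

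Genes of p63 and its targets fell in 8 of 25 cases and rose in 2, and hemidesmosome and basement membrane genes fell in 7 of 21 and rose in 1. Without library c the falls numbered 10 in the basement membrane list, and the falls in the p63 list numbered 5 without library b or c of siC_DMSO. COL4A1, a chain of basement membrane collagen, had 5.31, 5.84 and 15.1 CPM in siYT_XMU, against 80.5, 64.7 and 130.4 CPM in siC_DMSO (-3.47 ± 0.44, adjusted p = 9.42e-05). THBS1, thrombospondin, had 5.37, 10.7 and 54.9 CPM in siYT_XMU, against 396, 355 and 507 CPM in siC_DMSO, with library c well above the other siYT_XMU libraries. The log2 fold change was -4.23 ± 0.82 (adjusted p = 0.00159), or -5.71 without that library. LAMB1, a laminin chain, fell by 1.78 ± 0.32 (adjusted p = 0.00096) and DST, dystonin, fell by 1.37 ± 0.32 (adjusted p = 0.00541). In the same list of p63 targets PERP, a desmosomal protein, rose by 2.65 ± 0.49 (adjusted p = 0.00119) and FGFR3 by 2.16 ± 0.37 (adjusted p = 0.000714).

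Keratins that mark MCF10A cells divided. KRT5, the basal keratin, stood at 2955, 2224 and 2073 CPM in siYT_XMU, against 4236, 5086 and 4539 CPM in siC_DMSO (-0.93 ± 0.29, adjusted p = 0.0218), and -0.84 without library c (adjusted p = 0.0504). KRT14 was not called (-0.17 ± 0.54, adjusted p = 0.828). KRT17 rose by 3.62 ± 0.45 (adjusted p = 8.24e-05). Of the simple epithelial pair, KRT8 fell by 1.81 ± 0.29 (adjusted p = 0.000484) and KRT18 fell by 2.05 ± 0.26 (adjusted p = 9.3e-05). CDH1, E-cadherin of epithelial junctions, had 695, 703 and 783 CPM in siYT_XMU, against 247, 187 and 136 CPM in siC_DMSO (1.94 ± 0.25, adjusted p = 9.66e-05). The 13 tested identity markers of MCF10A, mostly basal, had a median log2 fold change of -0.68 and summed to 17230, 14580 and 11500 CPM in siYT_XMU, against 7909, 9278 and 9067 CPM in siC_DMSO, with 3 higher, KRT17 and CDH1 among them, and 6 lower. The 10 tested luminal markers summed to 1439, 1310 and 718.9 CPM in siYT_XMU, against 4128, 3825 and 3564 CPM in siC_DMSO, with 4 higher and 5 lower, or 2 higher without any 1 siC_DMSO library.

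Genes of the cell cycle fell almost without exception. All 31 tested G2/M genes were lower in siYT_XMU (median -3.63), as were 28 of 29 genes of G1/S and DNA replication (median -3.32) and 22 of 22 genes of recombination and Fanconi repair (median -3.16), with 0 higher in any of the 3 lists. Without library c the counts were 31, 29 and 22. In siYT_DMSO 31, 28 and 22 members of these lists were lower than in siC_DMSO. Against siYT_DMSO, siYT_XMU had 0, 1 and 1 members lower and 1, 3 and 0 higher. CCNB1, the mitotic cyclin, had 44.8, 22.9 and 18.6 CPM in siYT_XMU, against 289, 320.5 and 312 CPM in siC_DMSO (-3.4 ± 0.33, adjusted p = 1.66e-05). KIF20A, a kinesin of cytokinesis, had 21.1, 10.7 and 13.5 CPM in siYT_XMU, against 216, 269 and 299.7 CPM in siC_DMSO (-4.11 ± 0.36, adjusted p = 8.72e-06). For these genes every siYT_XMU library lay far below every siC_DMSO library.

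TPX2, a spindle assembly factor, fell by 3.44 ± 0.29 (adjusted p = 6.59e-06) and KIF23, a kinesin of the midzone, fell by 3.0 ± 0.30 (adjusted p = 2.13e-05). MKI67, the proliferation marker Ki-67, had 80.2, 18.4 and 56.1 CPM in siYT_XMU, against 486, 454 and 483 CPM in siC_DMSO (-3.2 ± 0.61, adjusted p = 0.00144). Among replication genes MCM3, a subunit of the helicase, had 21.4, 17.8 and 14.7 CPM in siYT_XMU, against 253, 234 and 232 CPM in siC_DMSO (-3.73 ± 0.23, adjusted p = 1.14e-06), and FEN1, the flap nuclease, fell by 3.06 ± 0.19 (adjusted p = 1.24e-06). PRIM1, the catalytic primase subunit, had 0.969, 0.0773 and 0 CPM in siYT_XMU, against 29.9, 21.9 and 22.9 CPM in siC_DMSO (-5.86 ± 0.81, adjusted p = 0.000157). PCNA, the sliding clamp, fell by 1.97 ± 0.22 (adjusted p = 3.5e-05), and was higher than in siYT_DMSO by 1.48 ± 0.21 (adjusted p = 0.00127). BRCA1, of homologous recombination, fell by 4.12 ± 0.37 (adjusted p = 1.07e-05), CHEK1, a checkpoint kinase, fell by 2.37 ± 0.22 (adjusted p = 1.1e-05), and RBBP8, of end resection, fell by 2.4 ± 0.19 (adjusted p = 5.33e-06).

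Promoters of CDC20, the activator of the anaphase-promoting complex, and KIF23 are shown because mitotic genes often carry the cell cycle homology region (CHR). The 250 bases before the start are chr1:43358731-43358980 on the plus strand and chr15:69414099-69414348 on the plus strand, RefSeq on GRCh38.p14. Capitals mark TTTGAA or its reverse complement TTCAAA, 178 and 65 bases before the start of CDC20 and 55 before that of KIF23.
CDC20: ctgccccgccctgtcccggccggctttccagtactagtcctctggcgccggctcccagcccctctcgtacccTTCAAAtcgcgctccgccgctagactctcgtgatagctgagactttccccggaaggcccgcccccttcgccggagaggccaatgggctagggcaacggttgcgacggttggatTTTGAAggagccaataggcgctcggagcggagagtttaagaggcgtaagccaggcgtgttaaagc
KIF23: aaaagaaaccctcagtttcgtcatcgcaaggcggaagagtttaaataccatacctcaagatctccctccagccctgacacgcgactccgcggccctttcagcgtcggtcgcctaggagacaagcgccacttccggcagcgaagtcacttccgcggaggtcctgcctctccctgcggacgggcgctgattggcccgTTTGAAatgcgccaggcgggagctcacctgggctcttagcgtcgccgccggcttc
The letters occurred in 12 of 25 matched promoters of the G2/M list (48.0%), in 1 of 25 of the G1/S list (4.0%) and in 13.6% of all promoters. CDC20 itself had 37.2, 18.4 and 14.5 CPM in siYT_XMU, against 307, 334 and 403 CPM in siC_DMSO (-3.88 ± 0.42, adjusted p = 3e-05).

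Inhibitors and partners of the cyclin-dependent kinases were mixed, with 3 of 13 higher and 3 lower, or 6 lower without library c of siYT_XMU. Over all genes 19.3% were higher and 21.6% lower. CDKN1A, the inhibitor p21, had 3228, 3785 and 2299 CPM in siYT_XMU, 1441, 1927 and 1596 in siYT_DMSO, 1236, 1025 and 577 in siC_XMU and 274, 326 and 392 in siC_DMSO. The siYT_XMU libraries lay above those of siC_DMSO without overlap (3.23 ± 0.31, adjusted p = 1.53e-05). CDKN2C, the inhibitor p18, fell by 3.53 ± 0.32 (adjusted p = 1.07e-05), RBL1, the retinoblastoma relative p107, fell by 3.89 ± 0.47 (adjusted p = 6.54e-05), and CDK4 fell by 1.36 ± 0.23 (adjusted p = 0.000558). CCND1, cyclin D1, was not called (-0.69 ± 0.27, adjusted p = 0.0644), but was without library c (-0.98, adjusted p = 0.015).

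Histone genes of the replication-dependent class went against the rest of the S-phase genes, with 11 of 16 higher and 0 lower (median 2.97). H2BC4 had 146, 98.97 and 122 CPM in siYT_XMU, 106, 206 and 166 in siYT_DMSO, 20.3, 23.6 and 21.2 in siC_XMU and 3.67, 3.26 and 3.003 in siC_DMSO. The siYT_XMU and siYT_DMSO libraries overlapped, and siC_XMU lay between them and siC_DMSO. The change against siC_DMSO was 5.21 ± 0.27 (adjusted p = 6.15e-07). H2BC21 rose by 5.96 ± 0.45 (adjusted p = 4e-06), H2BC5 by 5.62 ± 0.43 (adjusted p = 4.52e-06) and H2BC12 by 3.67 ± 0.28 (adjusted p = 4.52e-06). These libraries were made from polyadenylated RNA, and most histone mRNA of this class carries no poly(A) tail, so the values count the polyadenylated part. The genes are near-identical in sequence, and assignment of reads among them is uncertain.

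Ribosome biogenesis fell in 24 of 28 tested genes, with 0 higher (median -1.18). Knockdown alone (siYT_DMSO against siC_DMSO) gave 23 lower and 0 higher (median -1.29). Between siYT_XMU and siYT_DMSO 4 members were higher in siYT_XMU and 3 lower (median 0.13). Of all genes 4.19% were higher and 7.92% lower there. NOP58, a core protein of box C/D nucleolar particles, had 13.7, 9.72 and 17.6 CPM in siYT_XMU, against 158, 161 and 156 CPM in siC_DMSO (-3.56 ± 0.25, adjusted p = 2.84e-06). NOP2, an rRNA methyltransferase, fell by 1.39 ± 0.15 (adjusted p = 2.79e-05), GNL3, nucleostemin, fell by 1.51 ± 0.18 (adjusted p = 6.18e-05), and NOB1, a nuclease of the small subunit, fell by 1.78 ± 0.19 (adjusted p = 3.2e-05). MYC, a transcription factor that drives these genes, had 12.7, 12.4 and 17.8 CPM in siYT_XMU, 129.8, 95.1 and 109 in siYT_DMSO, 57.1, 70.5 and 74.7 in siC_XMU and 321, 278 and 268 in siC_DMSO. The 4 groups did not overlap, and siYT_XMU was the lowest. Its log2 fold change was -4.36 ± 0.21 against siC_DMSO (adjusted p = 4.42e-07), -2.98 ± 0.20 against siYT_DMSO (adjusted p = 2.13e-05) and -2.26 ± 0.19 against siC_XMU (adjusted p = 9.54e-06). Its antagonist MXD1, which pairs with the same partner MAX, rose by 3.0 ± 0.32 (adjusted p = 2.59e-05). A link between MYC and the ribosome biogenesis list was not tested.

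The effect of XMU-MP1 differed between knockdown and control siRNA cells, by a test of that difference, in the positive direction for 0.86% of genes and in the negative for 1.73%. In the list of AP-1 and immediate early genes 5 of 24 were called in the positive direction, and in the histone list 7 of 16 in the negative. Other lists held such calls too. Among them were 4 of 26 cytokine and NF-kB genes and 3 of 28 ribosome biogenesis genes in the positive direction. Of the regulators of epidermal differentiation 4 of 20 were called in the negative.

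A smaller set of genes stood apart from every other group, with a call in the same direction against siC_DMSO, siYT_DMSO and siC_XMU. There were 287 such genes on the high side (1.58% of those tested) and 678 on the low side (3.74%). The 3 comparisons share the siYT_XMU libraries. By the test of the difference between the XMU-MP1 effects, 27 of the 287 and 117 of the 678 were also called, in the same direction. For the rest, a difference beyond the 2 single treatments added together was not shown. Without library c the counts were 478 and 806, and DESeq2's Wald test gave 630 and 906 on all libraries. In an edgeR fit of only the libraries compared they were 187 and 177.

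On the high side stood immediate early genes, which cells switch on within minutes of a stimulus without new protein synthesis. ARC, a cytoskeletal gene best known from neurons, had 229, 86.5 and 59.5 CPM in siYT_XMU, 0, 0 and 0 in siYT_DMSO, 0.381, 0 and 0.243 in siC_XMU and 0, 0.05099 and 0 in siC_DMSO. NR4A1, an orphan nuclear receptor, had 34.1, 200.2 and 25.1 CPM in siYT_XMU, 1.08, 0.309 and 0.9595 in siYT_DMSO, 3.07, 3.05 and 2.28 in siC_XMU and 0.934, 0.663 and 2.11 in siC_DMSO. FOSB, a Fos protein of the AP-1 dimer, had 21.8, 98.9 and 79.6 CPM in siYT_XMU, 2.002, 3.07 and 2.45 in siYT_DMSO, 1.96, 2.07 and 2.44 in siC_XMU and 1.35, 1.45 and 0.978 in siC_DMSO. For each of them every siYT_XMU library exceeded all 9 others. Against siC_DMSO the changes were 12.56 ± 1.27 for ARC (adjusted p = 5.32e-05), 6.13 ± 0.88 for NR4A1 (adjusted p = 0.0002) and 5.72 ± 0.52 for FOSB (adjusted p = 1.04e-05).

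Of 24 tested AP-1 and immediate early genes 16 were higher in siYT_XMU than in siC_DMSO and 2 lower (median 2.24), and 10 were higher than in siYT_DMSO, where 4.19% of all genes were. FOS had 224, 325 and 284 CPM in siYT_XMU, 82.3, 37.4 and 74.6 in siYT_DMSO, 13.4, 9.36 and 5.58 in siC_XMU and 9.8, 5.88 and 7.67 in siC_DMSO, a change of 5.16 ± 0.41 against siC_DMSO (adjusted p = 5.22e-06) and 2.1 ± 0.36 against siYT_DMSO (adjusted p = 0.00309). EGR1, a zinc finger factor, had 1818, 797 and 2495 CPM in siYT_XMU, against 47.3, 20.8 and 24.3 CPM in siC_DMSO (5.79 ± 0.67, adjusted p = 5.04e-05). JUNB, a Jun protein, rose by 3.87 ± 0.24 (adjusted p = 1.19e-06), IER3 by 2.9 ± 0.22 (adjusted p = 4.48e-06) and ZFP36, which destabilises AU-rich mRNAs, by 2.62 ± 0.18 (adjusted p = 2.61e-06). Library b of siYT_XMU was the highest of its group for NR4A1, FOSB and FOS, and the lowest for EGR1.

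**Figure D4:**
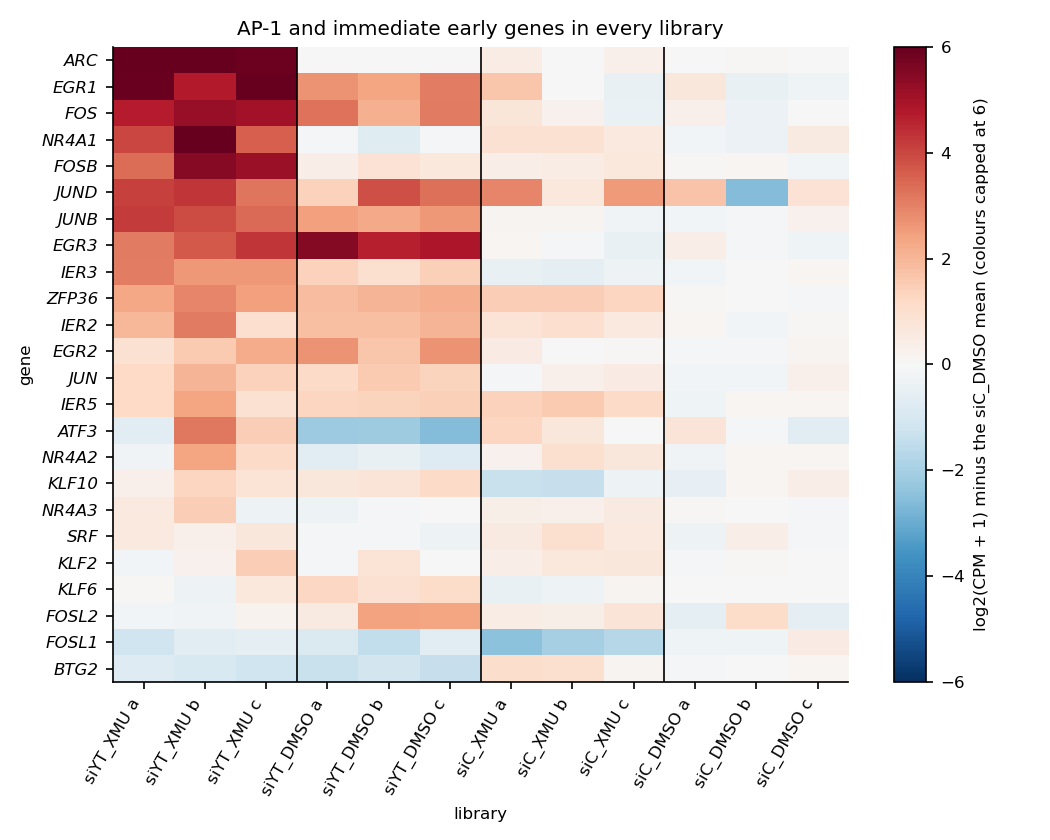
Log2(CPM + 1) of the 24 tested AP-1 and immediate early genes in each library, less the mean of the 3 siC_DMSO libraries, with colours capped at 6. ARC, NR4A1 and FOSB are red in the 3 siYT_XMU columns and pale in the other 9, whereas EGR3 is also red in siYT_DMSO.

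Feedback genes of the ERK pathway, which hold phosphatases, Sprouty and SPRED inhibitors and ETV factors, were split, with 6 of 20 higher and 5 lower, or 3 lower without library a of siC_DMSO. The shares over all genes were 19.3% higher and 21.6% lower. The members named here are phosphatases that rose. DUSP2 had 84.2, 83.6 and 36.9 CPM in siYT_XMU, 3.63, 1.82 and 2.498 in siYT_DMSO, 0.461, 0.331 and 0.334 in siC_XMU and 1.85, 1.34 and 1.39 in siC_DMSO (5.49 ± 0.40 against siC_DMSO, adjusted p = 3.43e-06). DUSP1 had 337, 605 and 313 CPM in siYT_XMU, 142, 143 and 148 in siYT_DMSO, 148, 173 and 143 in siC_XMU and 42.5, 59.4 and 57.2 in siC_DMSO (2.98 ± 0.25, adjusted p = 7.14e-06). DUSP7, a phosphatase of ERK, rose by 1.32 ± 0.19 (adjusted p = 0.000243).

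Further genes with the largest margins over every other group were varied in kind. GEM, a small GTPase, had 36.5, 39.8 and 74.8 CPM in siYT_XMU, against 0, 0.102 and 0.207 CPM in siC_DMSO (8.87 ± 0.81, adjusted p = 1.12e-05). RASD1, another, had 2.495, 82.4 and 23.4 CPM in siYT_XMU, against 0.184, 0.05099 and 0.0551 CPM in siC_DMSO, with library a far under the rest of its group (8.54 ± 1.39, adjusted p = 0.000498). PYGM, muscle glycogen phosphorylase, rose by 5.71 ± 0.84 (adjusted p = 0.000242). H2BC6, a histone, rose by 8.05 ± 0.96 (adjusted p = 6.07e-05). RPLP0P3, a pseudogene of a ribosomal protein whose reads may belong to its parent, rose by 8.6 ± 1.35 (adjusted p = 0.000375).

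Promoters of FOS and DUSP1 are shown because cyclic AMP response elements (CRE) are known in immediate early genes. The windows are chr14:75278578-75278827 on the plus strand and chr5:172771196-172771445 on the minus strand, RefSeq on GRCh38.p14. Capitals mark the half-site TGACGT or its reverse complement ACGTCA, 64 bases before the start of FOS and 172, 125 and 123 bases before that of DUSP1, where the last pair overlap.
FOS: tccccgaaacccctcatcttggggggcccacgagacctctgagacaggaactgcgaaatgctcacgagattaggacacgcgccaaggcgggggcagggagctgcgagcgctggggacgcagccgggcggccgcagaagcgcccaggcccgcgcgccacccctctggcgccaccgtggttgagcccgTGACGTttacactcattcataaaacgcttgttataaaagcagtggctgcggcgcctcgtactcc
DUSP1: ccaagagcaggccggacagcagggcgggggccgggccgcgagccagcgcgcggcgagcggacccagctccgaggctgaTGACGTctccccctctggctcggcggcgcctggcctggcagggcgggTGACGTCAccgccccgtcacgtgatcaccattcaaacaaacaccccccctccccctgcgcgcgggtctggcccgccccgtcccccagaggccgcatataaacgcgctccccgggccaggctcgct
The half-site was present in 6 of 18 matched promoters of the immediate early list (33.3%), in 5 of 25 of the G2/M list (20.0%), in 4 of 25 of the G1/S list (16%), in 0 of 20 of the cornified envelope list and in 7.42% of all promoters.

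On the low side stood DKK1, a secreted Wnt inhibitor, with 0.4696, 0.522 and 0 CPM in siYT_XMU, 5.25, 2.57 and 1.44 in siYT_DMSO, 3.81, 7.75 and 5.95 in siC_XMU and 26.7, 35.2 and 22.8 in siC_DMSO. KCTD14, a BTB domain gene, was at 0 counts in all siYT_XMU libraries, against 33.4, 41.04 and 44.6 CPM in siC_DMSO, which is at least 155-fold lower with 3 counts per library as the floor. SMARCB1, a core subunit of the SWI/SNF remodelling complex, had 0, 0.0773 and 0 CPM in siYT_XMU, 2.75, 48.6 and 0 in siYT_DMSO, 53.4, 55.4 and 48.5 in siC_XMU and 67.6, 59.4 and 61.8 in siC_DMSO. Its siYT_DMSO libraries ranged from 0 to near the siC_XMU level, while siYT_XMU was near 0 throughout (-10.45 ± 2.22 against siC_DMSO, adjusted p = 0.00286). PARP2, a DNA damage sensor, had 7.19, 3.67 and 2.901 CPM in siYT_XMU, 139.8, 38.4 and 14.7 in siYT_DMSO, 35., 41.4 and 53.3 in siC_XMU and 59.8, 59.5 and 54.3 in siC_DMSO (-3.6 ± 0.67, adjusted p = 0.00127). TRIM6, a ubiquitin ligase, fell by 4.96 ± 0.56 (adjusted p = 4.47e-05), AUNIP, an aurora kinase partner, fell by 3.64 ± 0.61 (adjusted p = 0.000619), and LRIG3, a leucine-rich membrane protein, fell by 3.73 ± 0.59 (adjusted p = 0.000396).

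Others among the 8 largest falls that met the naming rule were ZBED2, KIFC1 and PRIM1, which were not called against siYT_DMSO, and PRR15L, which was lower than every other group. ZBED2, a zinc finger repressor, had 0.675, 0 and 0 CPM in siYT_XMU, against 16.4, 25.7 and 21.8 CPM in siC_DMSO (-6.27 ± 1.25, adjusted p = 0.00192). PRR15L had 0.352, 0.483 and 0 CPM in siYT_XMU, 8.05, 10.6 and 4.35 in siYT_DMSO, 0.842, 1.81 and 1.08 in siC_XMU and 31.02, 27.98 and 10.1 in siC_DMSO (-5.99 ± 0.69, adjusted p = 4.88e-05). KIFC1, a minus-end kinesin, had 0.969, 0 and 0 CPM in siYT_XMU, against 40.9, 46.1 and 5.61 CPM in siC_DMSO, with library c of siC_DMSO well under libraries a and b (-6.28 ± 1.43, adjusted p = 0.00429).

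Cytokine and NF-kB genes were divided, with 9 of 26 higher and 8 lower. IL1A, interleukin-1 alpha, had 8.22, 7.62 and 1.66 CPM in siYT_XMU, 170.0, 98.4 and 236 in siYT_DMSO, 11.7, 11.3 and 15.3 in siC_XMU and 139, 93.02 and 93.6 in siC_DMSO. It was lower than in siC_DMSO (-4.11 ± 0.47, adjusted p = 4.5e-05) and in siYT_DMSO (-4.74 ± 0.48, adjusted p = 0.000182), and was not called against siC_XMU (adjusted p = 0.0782). IL1RN, the receptor antagonist, had 81.4, 110.5 and 114 CPM in siYT_XMU, against 3.997, 1.98 and 1.09 CPM in siC_DMSO (5.44 ± 0.67, adjusted p = 7.18e-05). NFKBIZ, a nuclear cofactor of NF-kB, rose by 2.16 ± 0.22 (adjusted p = 2.17e-05), and BIRC3, an inhibitor of apoptosis induced by NF-kB, fell by 3.79 ± 0.44 (adjusted p = 5.46e-05).

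Interferon-stimulated genes fell in 8 of 24 cases and rose in 3, with 5 falls without library b or c of siC_DMSO. IFIT3, a partner in complexes that bind foreign RNA, had 0.4696, 1.199 and 1.66 CPM in siYT_XMU, against 33.3, 33.8 and 27.9 CPM in siC_DMSO (-4.97 ± 0.56, adjusted p = 4.05e-05), and IFIT2 fell by 4.57 ± 0.51 (adjusted p = 3.76e-05). The factor IRF1 fell by 2.0 ± 0.28 (adjusted p = 0.000194), whereas IRF7 rose by 2.11 ± 0.31 (adjusted p = 0.000218). Growth factor receptors of the EGFR family and their ligands rose in 4 of 11 cases and fell in 2. HBEGF, a ligand of EGFR, had 1602, 1654 and 1499 CPM in siYT_XMU, against 122, 61.9 and 49.7 CPM in siC_DMSO (4.35 ± 0.36, adjusted p = 6.54e-06). The receptor gene ERBB3 rose by 2.99 ± 0.20 (adjusted p = 2.12e-06), ERBB2 by 1.42 ± 0.19 (adjusted p = 0.000154), and the ligand EPGN fell by 1.55 ± 0.37 (adjusted p = 0.00602).

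Genes of TGF-beta signalling and of the epithelial to mesenchymal transition fell in 11 of 25 cases and rose in 5, or rose in 3 without library b of siC_DMSO. TGFBR2, the type II receptor, had 15.7, 8.7 and 19.9 CPM in siYT_XMU, against 236, 269.5 and 259 CPM in siC_DMSO (-4.14 ± 0.29, adjusted p = 2.89e-06). SMAD3, its signal carrier, fell by 2.31 ± 0.23 (adjusted p = 1.72e-05). ID2, an inhibitor of helix-loop-helix factors, had 8.66, 80.5 and 36.9 CPM in siYT_XMU, against 0.674, 0.739 and 0.606 CPM in siC_DMSO, with library a the lowest of the siYT_XMU libraries (5.96 ± 0.76, adjusted p = 9.42e-05). Actin genes controlled by SRF and its cofactors fell in 8 of 20 cases, with 0 higher. CNN2, calponin 2, had 97.4, 99.5 and 88.7 CPM in siYT_XMU, against 453, 444 and 457 CPM in siC_DMSO (-2.25 ± 0.16, adjusted p = 2.89e-06). ZYX, zyxin of focal adhesions, fell by 1.75 ± 0.14 (adjusted p = 6.36e-06), FHL2, a LIM cofactor, fell by 2.55 ± 0.22 (adjusted p = 8.73e-06), and ACTN1, actinin, fell by 2.07 ± 0.26 (adjusted p = 8.21e-05).

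Matrix proteases and the plasminogen system were divided, with 8 of 21 higher and 7 lower, or 5 higher without library b of siC_DMSO. PLAU, the urokinase activator of plasminogen, had 36.98, 22.2 and 17.2 CPM in siYT_XMU, 287, 178 and 385 in siYT_DMSO, 22.6, 32.5 and 60.7 in siC_XMU and 279, 403 and 475 in siC_DMSO. The siYT_XMU and siC_XMU libraries overlapped, and the change against siC_DMSO was -3.91 ± 0.45 (adjusted p = 4.6e-05). MMP1, interstitial collagenase, had 49.5, 11.02 and 56.1 CPM in siYT_XMU, against 0.0612, 0 and 0 CPM in siC_DMSO (10.83 ± 1.30, adjusted p = 0.000138). The inhibitors TIMP1 and TIMP2 rose by 3.12 ± 0.37 (adjusted p = 6.16e-05) and 1.99 ± 0.21 (adjusted p = 2.46e-05). In the Wnt list 6 of 21 genes rose and 5 fell, against 19.3% and 21.6% of all genes. The ligands WNT9A and WNT7B rose by 3.52 ± 0.51 (adjusted p = 0.000226) and 2.25 ± 0.31 (adjusted p = 0.000165), and RNF43, which removes Wnt receptors, fell by 2.5 ± 0.34 (adjusted p = 0.000139).

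Autophagy genes rose in 17 of 23 cases and fell in 1 (median 1.16), and lysosome genes rose in 14 of 27 and fell in 4. Knockdown alone (siYT_DMSO against siC_DMSO) gave 18 and 15 higher and 1 and 4 lower. Between siYT_XMU and siYT_DMSO 1 and 0 members were higher in siYT_XMU and 1 and 1 lower. MAP1LC3B, the LC3 protein of autophagosomes, had 289.8, 433 and 325 CPM in siYT_XMU, against 65.5, 72.05 and 64.6 CPM in siC_DMSO (2.37 ± 0.22, adjusted p = 1.13e-05). ULK1 and ATG13, of the kinase complex that starts autophagy, rose by 2.6 ± 0.26 (adjusted p = 2e-05) and 1.7 ± 0.14 (adjusted p = 6.91e-06). ATG9B, a lipid scramblase of autophagy, had 38.7, 179 and 91.8 CPM in siYT_XMU, against 0, 0 and 0.1102 CPM in siC_DMSO (11.36 ± 0.99, adjusted p = 8.73e-06). CTSD, the protease cathepsin D, had 4317, 6970 and 2385 CPM in siYT_XMU, against 548, 696 and 545 CPM in siC_DMSO (2.93 ± 0.37, adjusted p = 8.05e-05). CTSV, a cathepsin of epithelia, rose by 4.46 ± 0.45 (adjusted p = 2.05e-05), MCOLN1, a lysosomal ion channel, by 2.5 ± 0.25 (adjusted p = 2.08e-05), and ATP6V0D1, of the proton pump, by 2.04 ± 0.23 (adjusted p = 4.06e-05).

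Stress pathways were mixed. In the list of ATF4 and the unfolded protein response 14 of 28 genes fell and 6 rose. The falls numbered 9 without library a or b of siC_DMSO or library a of siYT_XMU, and 10 without library c of siYT_XMU. MTHFD2, of mitochondrial folate metabolism, fell by 2.16 ± 0.28 (adjusted p = 0.000118), while the kinase gene ERN1 rose by 2.24 ± 0.31 (adjusted p = 0.000172) and PPP1R15A, a subunit of the eIF2 alpha phosphatase, by 2.15 ± 0.31 (adjusted p = 0.000215). FAS, the death receptor, had 4.99, 7.91 and 4.14 CPM in siYT_XMU, against 55.4, 62.2 and 48.7 CPM in siC_DMSO (-3.25 ± 0.25, adjusted p = 4.11e-06), and CCNG1, cyclin G1, fell by 3.01 ± 0.19 (adjusted p = 1.24e-06). NRF2 targets rose in 9 of 24 cases and fell in 3. AKR1C2, an aldo-keto reductase with close copies, rose by 4.34 ± 0.56 (adjusted p = 9.81e-05), and TXNRD1, thioredoxin reductase, fell by 2.17 ± 0.23 (adjusted p = 2.53e-05). Heat shock genes rose in 5 of 19 cases and fell in 4, against 19.3% and 21.6% of all genes. The small chaperone CRYAB had 53.7, 63.3 and 36.05 CPM in siYT_XMU, against 0.367, 0.204 and 0.0551 CPM in siC_DMSO (7.93 ± 0.61, adjusted p = 4.4e-06). Of the mitochondrial chaperone pair, HSPD1 fell by 1.46 ± 0.14 (adjusted p = 1.52e-05) and HSPE1 fell by 1.13 ± 0.15 (adjusted p = 0.000132).

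Cholesterol and fatty acid genes rose in 7 of 26 cases and fell in 2. The rises numbered 2 to 4 without any 1 library of siC_DMSO and 2 without library b of siYT_XMU. Hypoxia and glycolysis genes rose in 7 of 27 and fell in 1, or 11 and 1 without library c. NDRG1, a hypoxia-induced gene of differentiation, had 2336, 1143 and 1712 CPM in siYT_XMU, against 59.8, 98.9 and 145 CPM in siC_DMSO (4.09 ± 0.40, adjusted p = 1.79e-05). PFKFB3, an activator of glycolysis, had 98.5, 201 and 145 CPM in siYT_XMU, 25.1, 16.5 and 17.3 in siYT_DMSO, 40.3, 50.03 and 56.4 in siC_XMU and 31.9, 42.5 and 51.7 in siC_DMSO (1.81 ± 0.28 against siC_DMSO, adjusted p = 0.00036). In the BCL2 and gasdermin list 7 of 23 rose and 6 fell, with 4 rises without library c of siC_DMSO. GSDMA, a gasdermin of skin, rose by 6.52 ± 0.54 (adjusted p = 6.55e-06), MCL1, a survival protein, by 1.09 ± 0.18 (adjusted p = 0.000464), and BIK, a death-promoting relative, fell by 1.84 ± 0.24 (adjusted p = 0.000108).

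A few housekeeping lists depended on library c. Cytosolic ribosomal proteins had 1 of 33 members higher and 1 lower with it, but 21 higher and 0 lower without it. Nuclear genes of the respiratory chain had 5 of 34 higher with it and 20 without it (3 without any other 1 of the 6 libraries), and the proteasome 1 of 27 higher with it and 10 without it. COX5B, a subunit of cytochrome oxidase, rose by 1.06 ± 0.25 with it (adjusted p = 0.0053) and by 1.31 without it (adjusted p = 0.000264). Ribosomal RNA took 35.0% of the counts of that library, and the part of this in the difference was not tested.

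**Figure D5:**
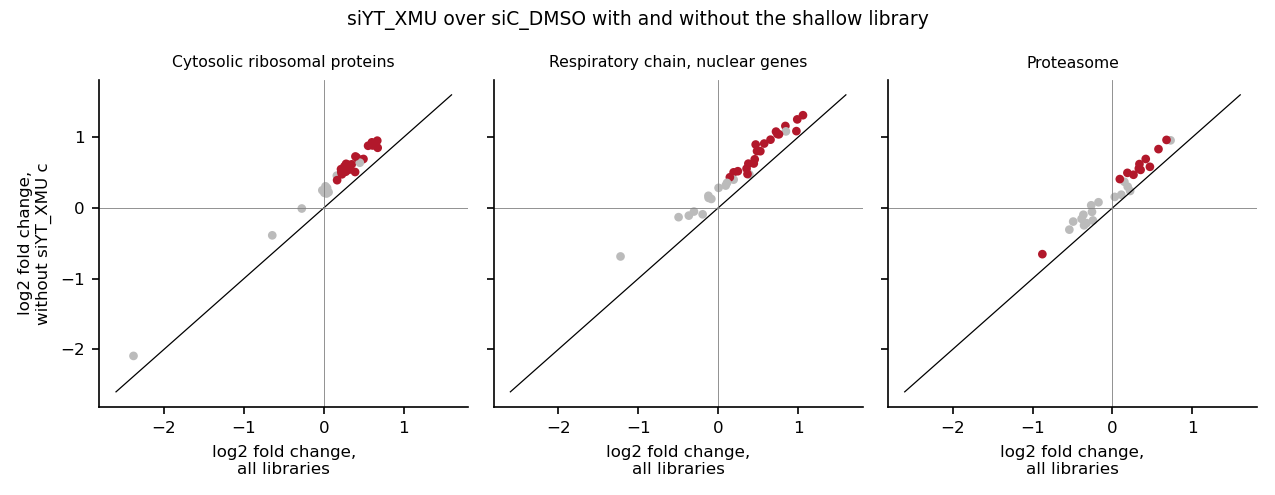
Log2 fold change of siYT_XMU over siC_DMSO from all libraries (horizontal) and without library c of siYT_XMU (vertical) for members of 3 housekeeping lists. Red points were called without library c, the line marks equal values, and points above it had a higher value once that library was left out.

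Markers of other cell types were low but not all absent. Of 12 leukocyte markers 4 passed the count filter and 3 of these rose and 0 fell. The summed level of the 4 was 75.5, 166 and 146 CPM in siYT_XMU, against 46.5, 65.9 and 57.6 CPM in siC_DMSO. CD68, also a lysosomal protein of other cells, had 48.2, 84.05 and 108 CPM in siYT_XMU, against 7.63, 8.69 and 14.4 CPM in siC_DMSO (2.96 ± 0.38, adjusted p = 9.74e-05), and ITGAM had 1.15, 12.9 and 6.01 CPM in siYT_XMU, against 0.291, 0.994 and 0.303 CPM in siC_DMSO (3.65 ± 1.09, adjusted p = 0.0189). The call of ITGAM was lost without library a or c of siC_DMSO or library b of siYT_XMU. The defining marker PTPRC had 55 counts in all siYT_XMU libraries together and 0 in siC_DMSO, and LYZ had 543 in siYT_XMU and 0 in siC_DMSO. TYROBP had 11 in siYT_XMU and 0 in siC_DMSO. The number at 0 in all siYT_XMU libraries was 4 of the 12 markers, the T cell genes CD3D and CD3E among them. Fibroblast markers summed to 26.7, 39.7 and 109 CPM in siYT_XMU, against 28.2, 38.8 and 45.6 CPM in siC_DMSO, with 2 of 8 higher and 1 lower. PDGFRA rose (adjusted p = 0.00521), with 183 counts in all siYT_XMU libraries together, 158 of them in 1 library, and 3 in siC_DMSO. The ratio after scaling was 146 (95% exact interval 49.0 to 712). That interval covers counting error only and not the spread between libraries. COL1A2 had 308 counts in siYT_XMU and 0 in siC_DMSO. FAP fell by 3.05 ± 0.49 (adjusted p = 0.000461), and COL1A1 rose by 1.35 ± 0.47 (adjusted p = 0.0359) but by 0.47 without library c (adjusted p = 0.235), a loss of the call that also occurred without any 1 siC_DMSO library. Endothelial markers were not called in any of 3 tested, and 3 of 8 were at 0 in all siYT_XMU libraries. What part such cells could have in any result was not tested.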

How the data were processed

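Gene-level values for 12 RNA-seq libraries of MCF10A cells were used. Poly(A) RNA was sequenced as stranded paired-end libraries, per the labels' protocols. Tools named in the submitters' processing notes are HISAT2, StringTie, edgeR, cutadapt and FastQC, without versions, and their build is GRCh38.p13. The deposited counts are whole numbers per gene and were tested as deposited. The deposited FPKM values were made by the authors from the same libraries and carry a value of 0.0001 wherever the count is 0. They served for the naming rule and as an alternative scale, log2(FPKM + 1).

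Counts were filtered with filterByExpr (18143 of 46931 genes kept) and scaled by TMM in edgeR 4.0.16 under R 4.3.3. The quasi-likelihood fit took 1 mean for each of the 4 groups over all libraries, with Benjamini-Hochberg adjusted p under 0.05 as the threshold. The SE is the absolute log2 fold change over the square root of F. Few genes were tested by exact permutation on log2(CPM + 1). The scripts were tested on simulated counts. Totals ran from 8243351 to 67953633 counts, so 3 counts, taken as the floor, stand for 0.0382 to 0.622 CPM, and floors cover counting error only. No library pair held identical counts. The difference of the XMU-MP1 effects (in knockdown cells less in control siRNA cells) was tested in the same fit.

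Genes were named by rule: YAP1, WWTR1, TP63, 4 Hippo kinases, CCN1 and CCN2. The 8 largest called changes in each direction were added among genes whose groups did not overlap, whose call held without library c and whose FPKM averaged 5 or more in 1 group, then up to 4 called members of each list with the smallest adjusted p, and 8 genes in each direction that stood farthest from all other groups. EGR1, EGR3, CDC20, IVL, FLG, TGM1, KRT5, KRT10, KRT14, PCNA, MKI67 and CCND1 were named after their values were seen, as were the genes whose promoters are printed. The members and lists were chosen with earlier results of these data known. Alternatives were DESeq2 1.42.0, limma-voom (limma 3.58.1), other scalings and filters, FPKM, leaving out each library, and a block for the letter. Promoters are the 250 bases before the first listed start of each gene in RefSeq's GRCh38.p14 table. A few genes and 1 gene list are not reported here.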

Additional observations from a re-analysis of the deposited data

Results flagged for a closer look

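For 18 named genes the effect of XMU-MP1 in knockdown cells (siYT_XMU over siYT_DMSO) differed from its effect in control siRNA cells (siC_XMU over siC_DMSO) by a test of the difference itself in edgeR's quasi-likelihood fit. Values are differences of log2 fold changes, knockdown less control, with the Benjamini-Hochberg adjusted p over all genes, and 10 were positive and 8 negative. Over all genes the same test called 0.86% positive and 1.73% negative. The named genes were picked from these same libraries, PYGM, NR4A1, GEM and FOSB for their distance from every other group. The share called among them therefore cannot be compared with the shares of all genes.

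The largest positive differences among these genes were PYGM at 7.21 (adjusted p = 0.0117), DUSP2 at 6.73 (adjusted p = 0.000578), NR4A1 at 5.64 (adjusted p = 0.0255), GEM at 4.69 (adjusted p = 0.0293) and FOSB at 3.95 (adjusted p = 0.0124). For DUSP2 the effects were opposite in sign, at 4.70 in knockdown cells and -2.02 in control siRNA cells. PFKFB3 differed by 2.70 (adjusted p = 0.00838), CCND1 by 2.41 (adjusted p = 0.0137), IER3 by 2.06 (adjusted p = 0.00793) and JUNB by 1.40 (adjusted p = 0.0353). MCM3 differed by 1.30 (adjusted p = 0.0389), with an effect of 0.01 in knockdown cells and -1.29 in control siRNA cells.

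Of the negative ones 4 were histone genes that XMU-MP1 raised in control siRNA cells: H2BC5 at -3.35 (adjusted p = 0.0108), H2BC4 at -3.09 (adjusted p = 0.00389), H2BC21 at -2.92 (adjusted p = 0.0202) and H2BC12 at -2.03 (adjusted p = 0.0199). GRHL1 differed by -2.29 (adjusted p = 0.0117), with an effect of -1.40 in knockdown cells and 0.89 in control siRNA cells. IRF7 differed by -1.91 (adjusted p = 0.0366), GATA3 by -1.55 (adjusted p = 0.0396) and ELOVL4 by -1.11 (adjusted p = 0.0386).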

How the results depend on the processing

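No called gene named by the rule changed direction under any setting tried, and at least 173 of the 188 kept their side of the threshold under each setting. The fewest did so on the FPKM scale, where 13 lost and 2 gained a call. On log2(FPKM + 1) 1696 genes were higher and 6453 lower in siYT_XMU than in siC_DMSO, and on log2(FPKM + 0.1) 1767 and 6413, with the median over all genes at -0.25 and -0.54. Genes lower than in every other group numbered 1342 and 1412 on these scales, 177 in fits of only the groups compared, and 413 with at least a 2-fold change. Genes higher than in every other group numbered 630 by DESeq2, 521 by limma-voom, 187 in fits of only the groups compared and 478 without library c of siYT_XMU. The causes were not tested. Among calls against every other group, rises made up 29.7%, and 41.0% by DESeq2, 43.6% by limma-voom, 51.4% in fits of only the groups compared and 37.2% without library c. Leaving out each library in turn gave 2581 to 3950 genes higher, 3190 to 4030 lower, 214 to 478 higher than every other group and 505 to 806 lower than every other group. Same-letter libraries of siYT_XMU and siC_DMSO correlated in their deviations at 0.0653, 0.0537 and 0.0266. Each library of siYT_XMU correlated best with its own letter, which is a hint from the data and not the design. With the letter as a replicate block the counts were 3309, 3919, 251 and 645. At 8243351 counts, 3 counts in library c stand for 0.622 CPM, so values of that library under this level are not distinguishable from 0.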
